A study of Homo sapiens with 12 samples.

Results

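The response shared by both CITED1 siRNAs was read from the 8 arrays of HT144 melanoma cells in which CITED1 was silenced, set against the 4 arrays of the control transfection, of 12 arrays in all. Members were the probes whose value on all 8 siCITED1 arrays lay beyond the values on all 4 siNEG arrays, on the same side. Of 47315 probes 797 met this rule (1.68%), 407 above siNEG (0.86%) and 390 below it (0.824%), and such probes are called separated. They named 613 genes, 324 above and 289 below, and no gene had separated probes on both sides. The account is about the 593 genes that remained when 20 were set aside, CITED1 and some of the largest changes such as MLANA, LUM, FABP7 and SERPINA3. Since the rule uses the measured values, the number of separated probes is a description.

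HT144 is an established human melanoma line, and all 3 groups were transfected with siRNA by lipofection and collected 48 h later. The groups were #1 siCITED1 and #3 siCITED1, which hold different siRNAs against CITED1, and siNEG, a non-targeting siRNA, with 4 wells and 4 arrays each. Replicate wells were plated on a single day from the same passage, so that p-values take in the well-to-well spread of 1 experiment and not that between experiments. Values were log2 intensities centred on each probe and each array, so 0 is a probe's mean over all 12, and a value says nothing of how abundant the mRNA was.

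CITED1 is a transcriptional co-regulator without a DNA-binding domain of its own that works through the acetyltransferases CBP and p300. In melanocytes and melanoma, pigment genes are driven by the transcription factor MITF, and cell division runs on gene groups that are switched on in S phase and at mitosis. Genes of the latest stage of the cycle often carry a pair of promoter elements, the cell cycle genes homology region (CHR) and the CCAAT box, whereas S phase genes often carry E2F sites. The M-box is the element through which MITF acts on pigment genes such as TYR.

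CITED1 itself was lower on all 8 siCITED1 arrays than on any siNEG array. Its average difference, with each siRNA given equal weight, was -0.70 ± 0.055 log2 (SE, limma adjusted p = 2.4e-08). The exact permutation test over all 495 assignments of the arrays gave p = 0.00202, the smallest it can give. As the groups did not overlap, this p restates that ordering and is no further support. CITED1 gave -0.64 with #1 and -0.75 with #3, and #1 minus #3 did not pass, at 0.11 (limma adjusted p = 0.47). These values are of mRNA and not protein. Whether the depth of silencing relates to the size of the response was not tested. Of the lineage genes, MITF gave 0.22 and SOX10 0.036 on the mean of their probes, and the SOX10 arrays overlapped siNEG. The centred values do not show whether a lineage marker is present. siNEG replicate 1 stood apart from the other arrays on the third principal component (score of 21.9 against a highest other score of 5.88, 9.43% of the variance) and had the widest SD, 0.134. No pair of arrays was identical.

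The promoters below are those of genes that fell in all 8 siCITED1 arrays and of TYR, which rose. They are shown because they hold the elements that division genes and pigment genes are known for, and they were chosen after the matches had been seen. Each is the 250 bases before the start site, from RefSeq on GRCh38.p14, written 5′ to 3′ on the strand of the gene. Capitals mark the CHR (TTTGAA) and the CCAAT box on either strand in CCNB2, PRC1, ZWINT, CDKN3 and HJURP, the CCAAT box in RRM2, and the M-box (TCATGTG) in TYR.
CCNB2, chr15:59104896-59105145, plus strand: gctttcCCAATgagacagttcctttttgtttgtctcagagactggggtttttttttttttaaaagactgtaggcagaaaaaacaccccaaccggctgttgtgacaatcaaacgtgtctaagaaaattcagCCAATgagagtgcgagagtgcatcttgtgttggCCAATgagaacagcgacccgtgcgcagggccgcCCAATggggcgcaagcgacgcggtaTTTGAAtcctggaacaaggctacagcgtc
PRC1, chr15:90994536-90994785, minus strand: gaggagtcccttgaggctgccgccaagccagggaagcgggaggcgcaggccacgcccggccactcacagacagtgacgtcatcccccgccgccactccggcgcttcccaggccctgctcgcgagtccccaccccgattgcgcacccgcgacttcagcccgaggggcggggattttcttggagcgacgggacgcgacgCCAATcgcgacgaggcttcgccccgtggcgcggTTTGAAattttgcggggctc
ZWINT, chr10:56361260-56361509, minus strand: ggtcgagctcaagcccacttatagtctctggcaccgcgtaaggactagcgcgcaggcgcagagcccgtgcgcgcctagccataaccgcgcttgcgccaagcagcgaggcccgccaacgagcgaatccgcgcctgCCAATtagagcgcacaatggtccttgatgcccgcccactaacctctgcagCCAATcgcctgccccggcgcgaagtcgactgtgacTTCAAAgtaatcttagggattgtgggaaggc
CDKN3, chr14:54396757-54397006, plus strand: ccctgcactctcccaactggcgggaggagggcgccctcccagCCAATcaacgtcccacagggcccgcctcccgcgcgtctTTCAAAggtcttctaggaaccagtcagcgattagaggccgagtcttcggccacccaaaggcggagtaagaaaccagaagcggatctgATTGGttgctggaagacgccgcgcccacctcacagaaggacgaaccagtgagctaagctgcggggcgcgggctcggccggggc
HJURP, chr2:233854536-233854785, minus strand: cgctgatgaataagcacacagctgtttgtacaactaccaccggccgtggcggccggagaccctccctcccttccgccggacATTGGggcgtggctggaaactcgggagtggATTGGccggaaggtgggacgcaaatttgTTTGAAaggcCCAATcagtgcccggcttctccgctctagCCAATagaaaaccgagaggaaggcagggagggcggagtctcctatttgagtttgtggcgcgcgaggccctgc
RRM2, chr2:10122489-10122738, plus strand: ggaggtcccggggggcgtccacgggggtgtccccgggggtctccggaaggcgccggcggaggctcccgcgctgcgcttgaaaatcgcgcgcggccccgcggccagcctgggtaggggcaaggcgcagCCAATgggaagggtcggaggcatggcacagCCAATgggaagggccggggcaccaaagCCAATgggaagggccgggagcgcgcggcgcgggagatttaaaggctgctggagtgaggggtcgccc
TYR, chr11:89177625-89177874, plus strand: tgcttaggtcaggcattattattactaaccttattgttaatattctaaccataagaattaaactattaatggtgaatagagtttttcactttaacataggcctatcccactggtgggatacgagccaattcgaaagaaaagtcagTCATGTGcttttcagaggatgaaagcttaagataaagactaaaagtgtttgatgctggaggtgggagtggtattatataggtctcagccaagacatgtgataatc

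CCNB2 is a mitotic cyclin, PRC1 bundles the microtubules of the central spindle and ZWINT links the kinetochore to the checkpoint. With positions counted from the start site at 0, the CHR began at -29, -20 and -31 in these promoters, with a CCAAT box at -54, -53 and -66, and CCNB2 held 3 more CCAAT boxes upstream. CDKN3, a phosphatase of cyclin-dependent kinases, had its CHR at -170, and HJURP, the chaperone of the centromeric histone, at -111. RRM2, the small subunit of ribonucleotide reductase, had 3 CCAAT boxes in a row, at -123, -93 and -66. The M-box of TYR, the rate-limiting enzyme of melanin synthesis, began at -105. A match is a stretch of letters and was not tested as a binding site.

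In the test across all probes, the average of both siRNAs passed the threshold (limma adjusted p under 0.05) for 1692 probes (3.58%), of which 795 were higher (1.68%) and 897 lower (1.9%). Of the 797 separated probes 602 passed, 313 higher and 289 lower. The other 195 separated probes did not pass, and 1090 probes passed although their arrays overlapped. The rule and the test use the same arrays, so how far they coincide is a description. Without the 20 genes set aside, the probes that were both separated and past the threshold came from 467 genes, 248 higher and 219 lower, and these are said to have risen or fallen. Over all separated probes, with the 20 genes included, the changes were small. Their median was 0.29 log2 above siNEG and -0.29 below it, and 33 probes above and 22 below reached 1.5-fold. The gap between the nearest siCITED1 and siNEG arrays had a median of 0.046 for separated probes above siNEG and 0.047 for those below it.

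A stricter reading asks for the threshold with each siRNA separately and in 1 direction. That held for 389 probes (0.822%), 212 higher and 177 lower, and 330 of them were separated. Both comparisons use the same siNEG arrays, so this count is a description.

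The rises were ranked by the smaller of the differences with #1 and #3 in each gene. They were led by PTPMT1, a phosphatase of the mitochondrial inner membrane that acts in cardiolipin synthesis. It read 0.19, 0.16, 0.24 and 0.42 on the #1 siCITED1 arrays and 0.21, 0.22, 0.18 and 0.24 on the #3 siCITED1 arrays, against -0.41, -0.54, -0.45 and -0.46 on the siNEG arrays. No other separated probe above siNEG left so wide a gap, 0.57 log2 between the nearest arrays of the groups. The average difference was 0.70 ± 0.056 log2 (SE, limma adjusted p = 2.8e-08), or 1.62-fold, made up of 0.72 with #1 and 0.67 with #3.

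QDPR, which regenerates the tetrahydrobiopterin used by the aromatic amino acid hydroxylases, read 0.13, 0.14, 0.076 and 0.41 on the #1 siCITED1 arrays and 0.10, 0.36, 0.31 and 0.084 on the #3 siCITED1 arrays, against -0.51, -0.42, -0.19 and -0.48 on the siNEG arrays. The groups did not overlap, and replicate 3 was the highest of the siNEG arrays. QDPR rose by 0.60 ± 0.073 log2 (SE, limma adjusted p = 6.5e-06).

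Genes of cholesterol synthesis were among these rises. HMGCS1, the cytosolic synthase that makes the precursor of mevalonate, read 0.0043, 0.25, 0.053 and 0.15 on the #1 siCITED1 arrays and 0.41, 0.47, 0.35 and 0.16 on the #3 siCITED1 arrays, against -0.68, -0.35, -0.28 and -0.54 on the siNEG arrays. The #3 arrays were on average above the #1 arrays, and the difference between the siRNAs was -0.23 (95% confidence interval of -0.40 to -0.058, adjusted p = 0.11). Its average rise was 0.69 ± 0.073 log2 (SE, limma adjusted p = 9.7e-07). SQLE, squalene epoxidase, rose by 0.62 ± 0.097 log2 (SE, limma adjusted p = 0.00022) on its leading probe, with the siNEG arrays spread from -0.91 to -0.12. Its other probe gave 0.37 (adjusted p = 0.0052) and overlapped.

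CAPN3, a calcium-dependent protease best known from skeletal muscle, was read by more than 1 separated probe. The leading one read 0.25, 0.33, 0.23 and 0.31 on the #1 siCITED1 arrays and 0.17, 0.21, 0.20 and -0.024 on the #3 siCITED1 arrays, against -0.71, -0.32, -0.51 and -0.14 on the siNEG arrays. Replicate 4 of #3 was the lowest of the siCITED1 arrays and still lay above all siNEG arrays. CAPN3 rose by 0.63 ± 0.076 log2 (SE, limma adjusted p = 6.5e-06) on this probe and by 0.54 on the other (adjusted p = 4.8e-06).

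ACTA2, smooth muscle actin, read 0.12, 0.25, 0.18 and 0.16 on the #1 siCITED1 arrays and 0.26, 0.32, 0.16 and -0.0045 on the #3 siCITED1 arrays, against -0.19, -0.29, -0.49 and -0.47 on the siNEG arrays. The means of the siRNAs were nearly the same, and #1 minus #3 was -0.0049 (95% confidence interval of -0.16 to 0.15, adjusted p = 0.99). ACTA2 rose by 0.54 ± 0.067 log2 (SE, limma adjusted p = 8.4e-06).

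WSB1, the substrate receptor of a ubiquitin ligase, was a rise in which the siRNAs differed. It read 0.060, -0.030, 0.12 and 0.15 on the #1 siCITED1 arrays and 0.34, 0.31, 0.47 and 0.37 on the #3 siCITED1 arrays, against -0.18, -0.43, -0.75 and -0.43 on the siNEG arrays. The #3 arrays lay above all #1 arrays, and #1 minus #3 was -0.29 (95% confidence interval of -0.47 to -0.12, adjusted p = 0.03). The average was 0.67 ± 0.073 log2 (SE, limma adjusted p = 1.8e-06), and its other probe was also separated, with 0.67 (adjusted p = 2e-07).

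Of the other named rises, BOD1, which helps chromosomes to biorient on the spindle, gave 0.62, DEXI gave 0.59, ATP9A, of the lipid flippase family, gave 0.61 and GAB2, a docking protein of receptor signalling, gave 0.52 log2, all past the threshold. For ATP9A and GAB2 the other probes did not follow: they gave 0.030 and -0.036 for ATP9A and 0.070 and 0.035 for GAB2, and all of them overlapped siNEG. RNA28SN5, the large ribosomal RNA, gave 0.66 ± 0.14 log2 (SE, limma adjusted p = 0.0037) on 1 probe, with replicate 4 of #3 at 1.05 and the other siCITED1 arrays between -0.14 and 0.32. The other RNA28SN5 probe gave 0.36 (adjusted p = 0.094), and the probes of RNA18SN5 and RNA5S9 gave 0.080 and -0.049, all with overlap. The RNA28SN5 rise did not pass in the 2-group design of the study (adjusted p = 0.055) or with robust estimation of the variance (adjusted p = 0.155).

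The falls, ranked in the same way, were led by BNIP3, a mitophagy receptor of the outer mitochondrial membrane that is induced at low oxygen. It read -0.27, -0.14, -0.17 and -0.11 on the #1 siCITED1 arrays and -0.25, -0.16, -0.33 and -0.092 on the #3 siCITED1 arrays, against 0.40, 0.32, 0.29 and 0.52 on the siNEG arrays. Both siRNAs moved it by nearly the same amount, -0.56 with #1 and -0.59 with #3, and #1 minus #3 was 0.034 (95% confidence interval of -0.11 to 0.18, adjusted p = 0.91). On average BNIP3 changed by -0.57 ± 0.060 log2 (SE, limma adjusted p = 9.4e-07).

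RRM2, whose promoter is printed above, read -0.45, -0.033, -0.26 and -0.12 on the #1 siCITED1 arrays and -0.13, -0.38, -0.12 and -0.046 on the #3 siCITED1 arrays, against 0.32, 0.12, 0.54 and 0.54 on the siNEG arrays. The wells were spread more widely than for BNIP3, with siNEG replicate 2 the lowest control, and the groups did not overlap. The average difference was -0.57 ± 0.082 log2 (SE, limma adjusted p = 6.9e-05), and #1 minus #3 was -0.048 (95% confidence interval of -0.24 to 0.15, adjusted p = 0.9).

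FOSL1, the AP-1 subunit FRA1, read -0.12, -0.17, -0.065 and -0.16 on the #1 siCITED1 arrays and -0.20, -0.21, -0.39 and -0.35 on the #3 siCITED1 arrays, against 0.50, 0.45, 0.29 and 0.42 on the siNEG arrays. All #3 arrays were below all #1 arrays, although #1 minus #3 did not pass the test, at 0.16 (95% confidence interval of 0.025 to 0.30, adjusted p = 0.18). FOSL1 fell by 0.62 ± 0.057 on the log2 scale (SE, adjusted p = 2.1e-07). PLAUR, the urokinase receptor, was read by 3 probes that all passed, with -0.49 on the leading probe and -0.40 and -0.22 on the others, of which the last overlapped siNEG.

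SMAGP, a small transmembrane glycoprotein of cell adhesion, read -0.52, -0.28, -0.18 and -0.29 on the #1 siCITED1 arrays and -0.18, -0.020, -0.12 and -0.071 on the #3 siCITED1 arrays, against 0.43, 0.39, 0.40 and 0.44 on the siNEG arrays. The siNEG arrays were close together, and all #1 arrays were below all #3 arrays. SMAGP changed by -0.63 ± 0.059 log2 (SE, limma adjusted p = 2.7e-07), with #1 minus #3 at -0.22 (95% confidence interval of -0.37 to -0.083, adjusted p = 0.044). Its other 3 probes were nearer to siNEG, with -0.42 on 1 that was separated, and -0.24 (adjusted p = 0.033) and -0.029 (adjusted p = 0.94) on those that overlapped siNEG, and the mean of all its probes gave -0.33. WDR54, a protein of WD repeats, read -0.12, -0.12, -0.24 and -0.14 on the #1 siCITED1 arrays and -0.18, -0.24, -0.19 and -0.26 on the #3 siCITED1 arrays, against 0.39, 0.34, 0.31 and 0.46 on the siNEG arrays. Its gap of 0.42 log2 between the groups was the widest of the falls once those 20 genes were set aside, and it changed by -0.56 ± 0.053 log2 (SE, limma adjusted p = 2.3e-07).

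Several of the other named falls were division genes. TRIP13, the ATPase that remodels checkpoint proteins at the kinetochore, read -0.59, -0.20, -0.34 and -0.28 on the #1 siCITED1 arrays and -0.13, -0.21, 0.085 and -0.0037 on the #3 siCITED1 arrays, against 0.34, 0.27, 0.39 and 0.67 on the siNEG arrays. The #1 arrays were lower than the #3 arrays with 1 exception, and #1 minus #3 passed at -0.29 (95% confidence interval of -0.47 to -0.11, adjusted p = 0.044). In the fit on 1 value per gene the same difference did not pass (limma adjusted p = 0.0502). TRIP13 changed by -0.63 ± 0.077 log2 (SE, limma adjusted p = 8.2e-06).

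CDKN3 read -0.18, -0.21, -0.52 and -0.25 on the #1 siCITED1 arrays and -0.24, 0.0017, -0.047 and -0.10 on the #3 siCITED1 arrays, against 0.23, 0.27, 0.38 and 0.67 on the siNEG arrays. The siCITED1 arrays were all below siNEG, and siNEG replicate 4 was the highest control. CDKN3 changed by -0.58 ± 0.076 log2 (SE, limma adjusted p = 2.2e-05). PBK, a mitotic kinase, changed by -0.55, FBXO5, the inhibitor of the anaphase-promoting complex, by -0.53 and SKA2, of the SKA complex that couples kinetochores to microtubules, by -0.54 log2. The other probe of FBXO5 gave -0.15 (adjusted p = 0.32). SKA2 was read by 2 more probes, which gave -0.34 and 0.0083 with overlap, and on the probe with the lower value #1 gave 0.084 and #3 -0.76. SEMA6B, a semaphorin, changed by -0.51 on 1 probe, and the other, which did not pass, gave -0.042.

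**Figure D1:**
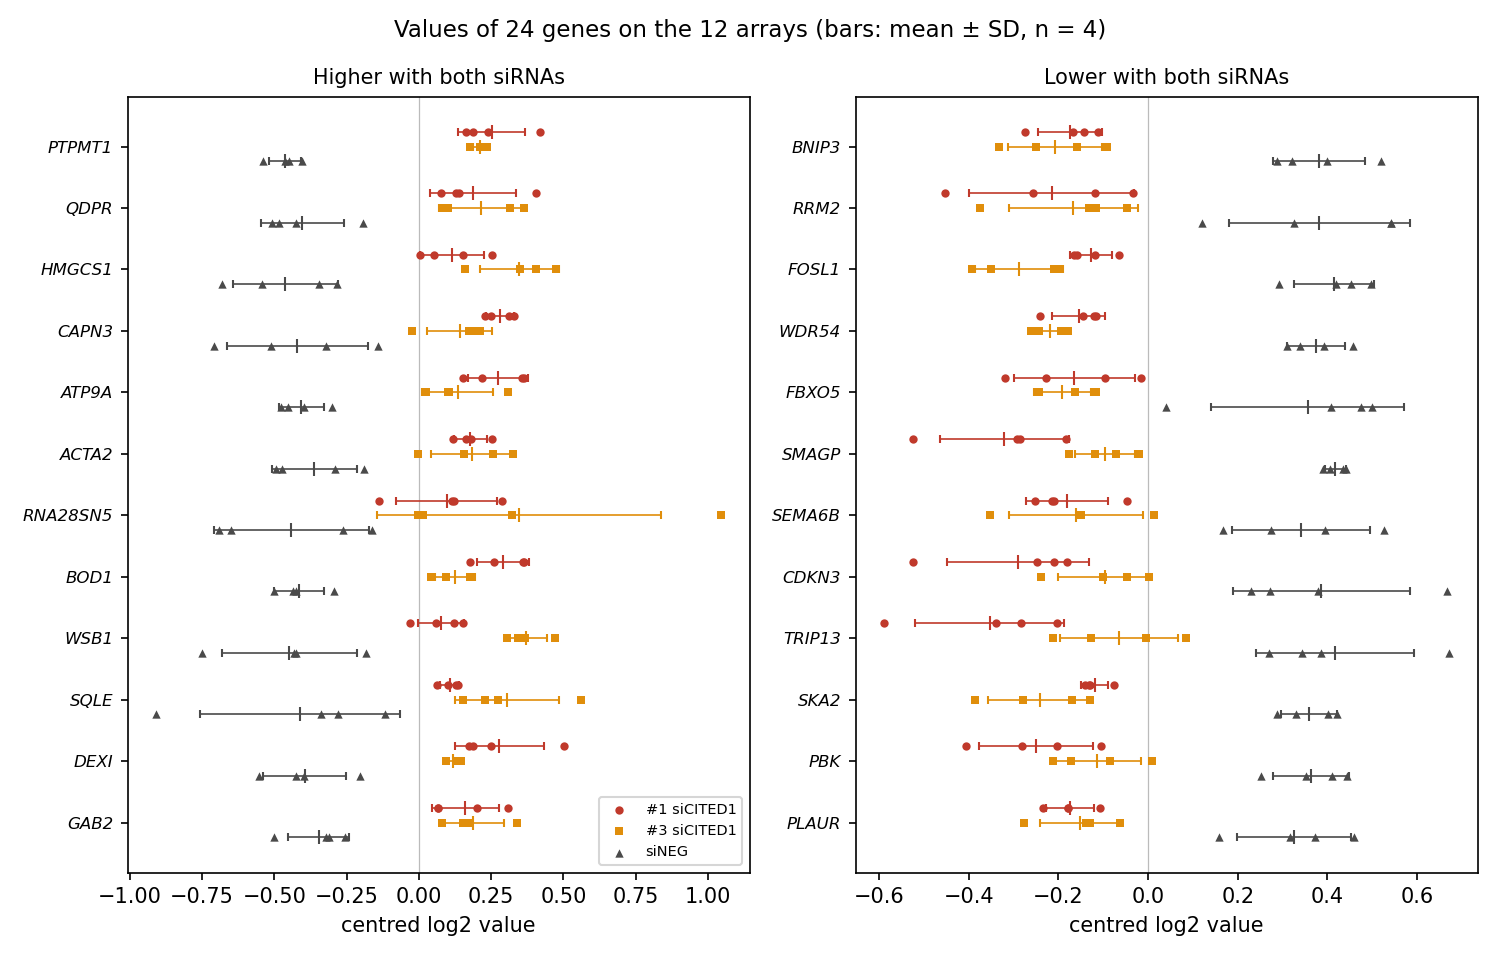
Centred log2 value (x axis) on each of the 12 arrays for 24 genes that rose (left) or fell (right), one row per gene. The genes are those ranked highest by the smaller of their differences with #1 and #3. Points are arrays and bars the mean ± SD of 4 arrays. All siCITED1 points lie to the right of all siNEG points on the left panel and to the left of them on the right panel, and RNA28SN5 has 1 #3 siCITED1 array at 1.05.

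Other probes of the same genes mostly had the same sign, and a minority passed the test. Of the 248 genes that rose, 115 had other probes, 184 in all, of which 153 had the same sign, 41 passed the threshold in that direction and 0 passed in the other, with a median of 0.10 log2. Of the 219 genes that fell, 104 had other probes, 168 in all, of which 136 had the same sign, 43 passed and 0 passed in the other direction, with a median of -0.10. The leading probe had been chosen for its size, so the smaller values of the others are a description.

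The borders of the rule lay among small gaps. Just inside it were CABLES1, FAHD2A and DUSP3, which differed from siNEG by 0.26, 0.40 and 0.35 log2, each with the nearest arrays of the groups almost equal. Just outside it were MRE11, ARHGAP12 and IL32, with -0.20, -0.28 and -0.097.

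For gene groups, the probes of each gene were averaged into 1 value and fitted again with limma, so the SEs and adjusted p-values of genes in the groups below are over genes and not probes. Of 20045 genes, 274 were separated above siNEG (1.37%) and 243 below it (1.21%), and 555 passed the threshold as higher (2.77%) and 600 as lower (2.99%). The median over all genes was 0.0030 log2. The counts of each group below are read against these shares.

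The genes of the mitotic spindle and kinetochore were mostly called lower on the average of both siRNAs, and a minority were separated. Of 58 genes 0 were called higher and 47 lower, 16 were separated, and the median was -0.34 log2. Ranked by the smaller of the differences with #1 and #3, the leading separated members were TRIP13, PBK, KIF14 and KIF15. The KIF proteins are kinesins of the spindle and of cytokinesis. KIF14 gave -0.79 with #1 and -0.42 with #3 and KIF15 -0.31 with #1 and -0.32 with #3. In bulk RNA, fewer dividing cells and less RNA per dividing cell cannot be told apart.

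This group did not change equally with #1 and #3. Its median was -0.54 with #1 and -0.15 with #3, and #1 minus #3 passed for 45 of the 58 genes, beside 12.4% of all genes. PRC1 read -0.42, -0.46, -0.43 and -0.54 on the #1 siCITED1 arrays and 0.046, 0.12, 0.15 and 0.13 on the #3 siCITED1 arrays, against 0.35, 0.32, 0.30 and 0.44 on the siNEG arrays. All #3 arrays lay between the #1 and the siNEG arrays. CCNB2 gave -0.70 with #1 and -0.18 with #3 (adjusted p = 0.19 for #3), CDC20, an activator of the anaphase-promoting complex, gave -0.84 with #1 and -0.28 with #3, and BUB1B, a checkpoint kinase, gave -0.46 with #1 and -0.14 with #3 (adjusted p = 0.35 for #3).

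Of 50 genes of the replication fork and origin 0 were called higher and 30 lower, with 12 separated and a median of -0.24. RRM2, GINS3, CDC45 and RPA3 led the separated members. GINS3 and CDC45 belong to the helicase that unwinds DNA. GINS3 gave -0.38 with #1 and -0.31 with #3, CDC45 gave -0.78 with #1 and -0.30 with #3, and RPA3, of the single-strand binding complex, gave -0.44 with #1 and -0.27 with #3 (adjusted p = 0.085 for #3). The group median was -0.36 with #1 and -0.084 with #3, and 28 of the 50 genes differed between the siRNAs.

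The promoters of the mitotic genes held the CHR and the CCAAT box more often than those of the array's genes as a whole. The CHR was present in the window of 250 bases before to 50 after the start in 10 of 14 separated mitotic genes with a promoter entry (71.4%), in 35 of all 51 mitotic genes (68.6%) and in 12.2% of 15033 genes on the array. The CCAAT box had the same counts in the mitotic genes and was present in 36.5% of all promoters. The share with a CHR among separated mitotic genes was thus close to that of the whole mitotic list. The CHR was in 2 of 43 promoters of all listed replication genes (4.65%), whereas the E2F site (TTTNNCGC) was in 22 of them (51.2%), against 8.81% of all promoters. In the separated replication genes the E2F site was in 3 of 10 promoters (30%) and the CHR in 0 of 10.

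Over all genes that fell, 13.5% of 170 promoters held a CHR, 46.5% a CCAAT box and 15.3% an E2F site. Over those that rose, the shares in 209 promoters were 9.57%, 43.1% and 8.13%. The M-box was in 5 promoters of rising genes (2.39%), in 4 of falling genes (2.35%) and in 2.24% of all promoters. The E-box (CACGTG) was in 10.5% of rising, 7.65% of falling and 8.89% of all promoters. All motifs were searched on both strands, and neighbouring matches of different motifs may share bases at their ends. These shares are descriptions and were not tested.

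**Figure D2:**
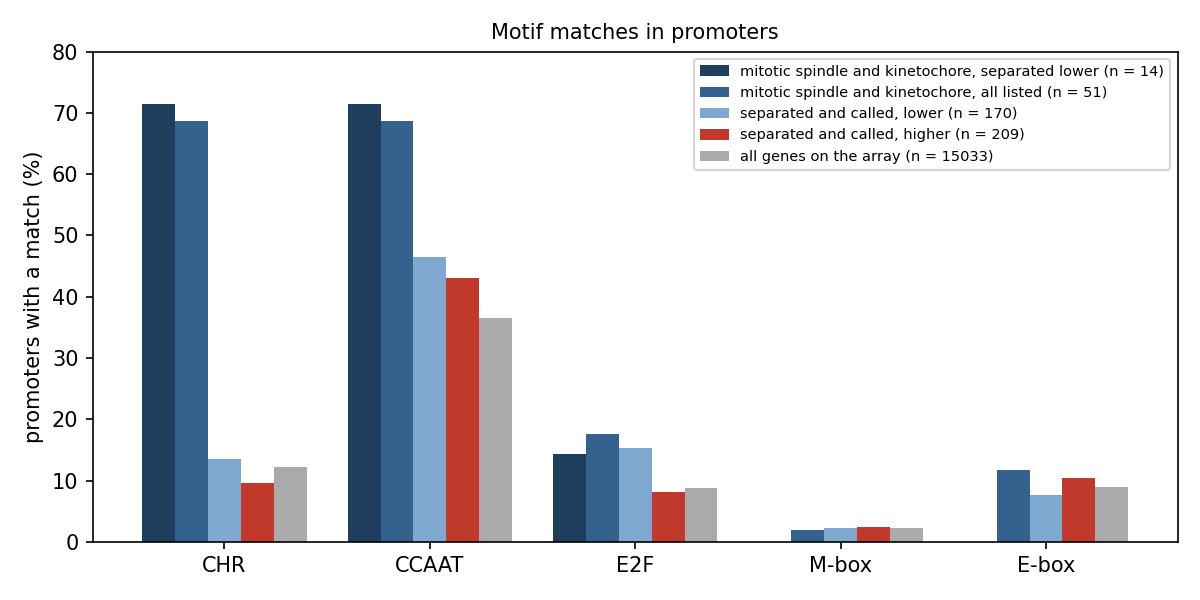
Share of promoters (y axis, percent) with a match to each motif (x axis), in the mitotic genes that were separated below siNEG, in all listed mitotic genes, in genes that fell, in genes that rose and in all genes on the array. The CHR bars of the mitotic genes reach 71.4% and 68.6%, against 12.2% for the array, and the M-box bars are all under 2.5%.

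Of 31 melanosome and pigment genes 8 were called higher and 2 lower, with 5 separated above siNEG and 1 below it. Their median was 0.023. MLANA, CAPN3, RAB38 and RAB32 were the leading separated members. RAB38 and RAB32, the small GTPases that deliver enzymes to melanosomes, rose too. RAB38 gave 0.72 with #1 and 0.39 with #3, and RAB32 gave 0.36 with #1 and 0.49 with #3. RAB32 read 0.21, -0.068, 0.049 and 0.11 on the #1 siCITED1 arrays and 0.18, 0.10, 0.28 and 0.26 on the #3 siCITED1 arrays, against -0.18, -0.28, -0.23 and -0.43 on the siNEG arrays, and the groups did not overlap.

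The exception among the separated members was MC1R, the melanocortin receptor that turns on pigment synthesis. It read 0.064, -0.063, -0.15 and 0.036 on the #1 siCITED1 arrays and -0.21, -0.33, -0.30 and -0.28 on the #3 siCITED1 arrays, against 0.14, 0.32, 0.33 and 0.44 on the siNEG arrays. All #3 arrays were below all #1 arrays. MC1R gave -0.33 with #1 and -0.59 with #3, and #1 minus #3 was 0.25 (adjusted p = 0.015). MC1R changed by -0.46 ± 0.056 log2 (SE, limma adjusted p = 5.9e-05). EDNRB, the endothelin receptor of melanocytes, rose by 0.35 ± 0.049 log2 (SE, limma adjusted p = 0.0002).

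Genes of antigen presentation by MHC class II held falls, and #1 minus #3 passed for 3 of the 5 separated members, each of them lower with #3. Of 25 genes 0 were called higher and 6 lower, and the median was -0.093, with -0.0096 for #1 and -0.18 for #3. HLA-DOA, HLA-DPB1, HLA-DMB and HLA-DMA led the separated members, and CIITA, the master regulator of the class, was the other. HLA-DMB, which helps to load peptides, read 0.012, 0.096, -0.011 and 0.14 on the #1 siCITED1 arrays and -0.40, -0.34, -0.50 and -0.32 on the #3 siCITED1 arrays, against 0.27, 0.49, 0.18 and 0.38 on the siNEG arrays. The #3 arrays were lowest, #1 arrays lay between, and #1 minus #3 was 0.45 (adjusted p = 0.00015).

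HLA-DOA gave -0.32 with #1 and -0.69 with #3, HLA-DPB1 -0.29 with #1 and -0.61 with #3 and HLA-DMA -0.24 with #1 and -0.29 with #3. CIITA read 0.059, -0.087, -0.12 and -0.0061 on the #1 siCITED1 arrays and -0.16, -0.11, -0.12 and -0.26 on the #3 siCITED1 arrays, against 0.17, 0.22, 0.31 and 0.11 on the siNEG arrays. It changed by -0.30 ± 0.049 log2 (SE, limma adjusted p = 0.00096), and the difference between the siRNAs did not pass, 0.12 (adjusted p = 0.22). Of 40 interferon-stimulated genes 2 were called higher and 5 lower, and IFITM1 was the separated one, with -0.21.

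Of 20 genes of sterol synthesis and uptake 9 were called higher and 0 lower, with 3 separated above siNEG and a median of 0.096. The median was 0.043 with #1 and 0.19 with #3. Beside HMGCS1 and SQLE, the separated member was DHCR7, the last enzyme of the main cholesterol pathway, with 0.094 with #1 and 0.33 with #3 and #1 minus #3 at -0.24 (adjusted p = 0.0027).

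Lysosomal genes had 7 called higher and 0 lower of 48, with a median of 0.056, and 3 separated. These were ATP6V0E1, of the proton pump (0.26), SMPD1, acid sphingomyelinase (0.16), and CTNS, the cystine exporter (0.14, adjusted p = 0.062).

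Glycolysis and the low oxygen response held 3 called higher and 4 lower of 33, with 5 separated below siNEG and 1 above it. BNIP3, SLC2A1, KDM3A and ENO2 were the leading members. SLC2A1, the main glucose transporter, read -0.26, 0.071, -0.20 and -0.20 on the #1 siCITED1 arrays and -0.17, -0.039, -0.12 and 0.00077 on the #3 siCITED1 arrays, against 0.35, 0.32, 0.091 and 0.16 on the siNEG arrays. It changed by -0.35 ± 0.064 log2 (SE, limma adjusted p = 0.0027). ENO2, an enolase, changed by -0.34, whereas KDM3A, a histone demethylase that low oxygen induces, rose by 0.34 ± 0.062 log2 (SE, limma adjusted p = 0.0024).

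Serine, one-carbon and amino acid metabolism held PHGDH, the entry enzyme of serine synthesis, which changed by -0.42 ± 0.053 log2 (SE, limma adjusted p = 9.2e-05) and read -0.12, -0.26, -0.24 and -0.13 on the #1 siCITED1 arrays and 0.025, -0.20, -0.14 and -0.058 on the #3 siCITED1 arrays, against 0.34, 0.29, 0.14 and 0.34 on the siNEG arrays. ASNS, asparagine synthetase, changed by -0.31, and AMD1, of polyamine synthesis, rose by 0.37 log2. Of the 34 genes of this list 1 was called higher and 4 lower.

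The DUSP and PTP phosphatases had 6 of 62 genes separated above siNEG and 0 below it, with 5 called higher and 1 lower. DUSP1, DUSP3 and DUSP18 are dual-specificity phosphatases, several of which act on MAP kinases, and PTPN1, PTPN9 and PTPN13 are tyrosine phosphatases. PTPN1 read 0.080, 0.19, 0.15 and 0.088 on the #1 siCITED1 arrays and 0.17, 0.20, 0.18 and -0.041 on the #3 siCITED1 arrays, against -0.29, -0.17, -0.17 and -0.39 on the siNEG arrays. It rose by 0.38 ± 0.056 log2 (SE, limma adjusted p = 0.00029), almost equally with both siRNAs, 0.38 with #1 and 0.39 with #3. DUSP1 rose by 0.39 ± 0.074 log2 (SE, limma adjusted p = 0.0029), and PTPN9 gave 0.12 (adjusted p = 0.15).

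Actin and myosin genes moved both ways, 7 called higher and 10 lower of 55, with 3 and 4 separated. ACTA2 and MYO1D, a class I myosin (0.22), rose, and DIAPH3, a formin (-0.31), and FSCN1, which bundles filopodial actin (-0.24), fell. Of 10 metallothioneins, which bind zinc and copper, 4 were called lower, and MT2A and MT1X were separated, with -0.52 with #1 and -0.31 with #3 for MT2A and -0.68 with #1 and -0.11 with #3 for MT1X.

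Of 36 G protein-coupled receptors of small ligands 4 were called higher and 2 lower, with 2 separated above siNEG and 2 below it. Of 35 genes of phosphoinositide signalling 3 were called higher and 2 lower, with 2 separated above siNEG and 0 below it. NTSR1, the neurotensin receptor, changed by -0.32 ± 0.044 log2 (SE, limma adjusted p = 0.00021). INPP4B, a phosphoinositide phosphatase, rose by 0.43 ± 0.062 log2 (SE, limma adjusted p = 0.00032) and read 0.17, 0.16, 0.24 and 0.043 on the #1 siCITED1 arrays and 0.11, 0.11, 0.35 and -0.039 on the #3 siCITED1 arrays, against -0.38, -0.28, -0.29 and -0.18 on the siNEG arrays.

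Many lists had no separated gene. They numbered 18 of 62 and included the mitochondrial ribosomal proteins (80 genes), the proteasome subunits (48), the translation initiation factors (56), the DDX and DHX helicases (54), the potassium channels (92), the collagens (45), the integrins (30) and the p53 target genes (29). As 1.37% of all genes were separated above siNEG and 1.21% below it, 0 in a short list says little. Some of these lists still held calls on the average. Of the proteasome subunits 4 were called lower (8.33%) and of the integrins 3 (10%), with 0 higher in both, beside 2.99% of all genes called lower. Of the p53 targets 1 was called higher and 0 lower. The leukocyte (11), keratinocyte (9) and endothelial (8) markers had 0 called in either direction, and of 12 fibroblast markers LUM was called higher.

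**Figure D3:**
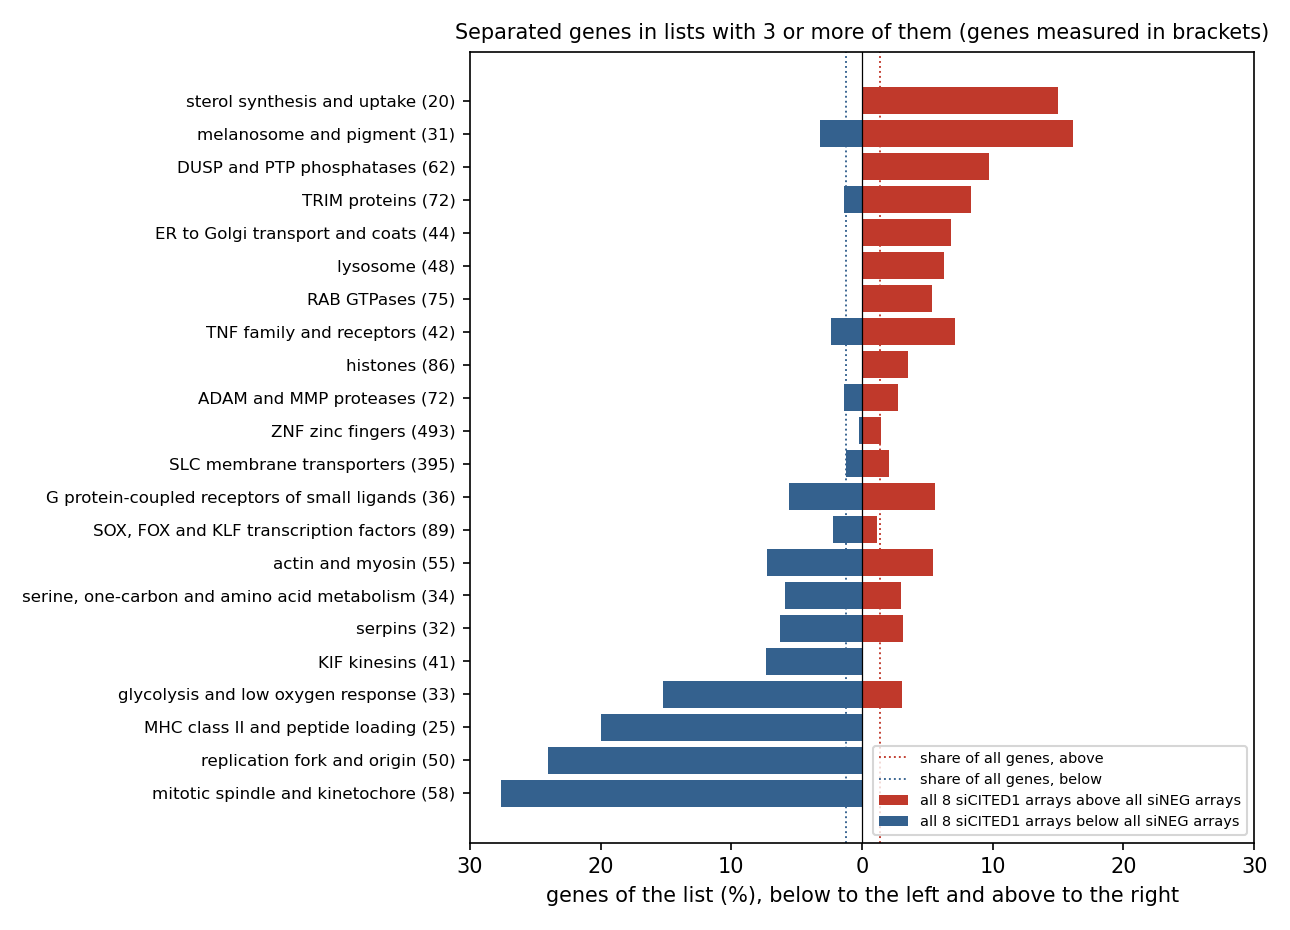
Share of the genes of each list (x axis, percent) that were separated above siNEG (red, to the right) or below it (blue, to the left), for the 22 lists with 3 or more such genes, with the number of genes measured in brackets and dotted lines at the shares over all genes, 1.37% and 1.21%. The mitotic list reaches 27.6% below siNEG and the melanosome list 16.1% above it.

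The size of the shared response was compared between the siRNAs by #1 minus #3. This difference does not use the siNEG arrays, but the rule for separated probes used the same #1 and #3 arrays. Which siRNA was further from siNEG was read from differences that do use the siNEG arrays. The counts among separated probes are therefore descriptions. Over all probes 3528 passed (7.46%). Among the 797 separated probes 158 passed (19.8%), and 266 had an unadjusted p under 0.05. Of the 158, 134 were further from siNEG with #1 (48 above siNEG and 86 below it) and 24 with #3 (12 above and 12 below). Over all separated probes regardless of the test, 514 were further with #1 and 283 with #3.

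**Figure D4:**
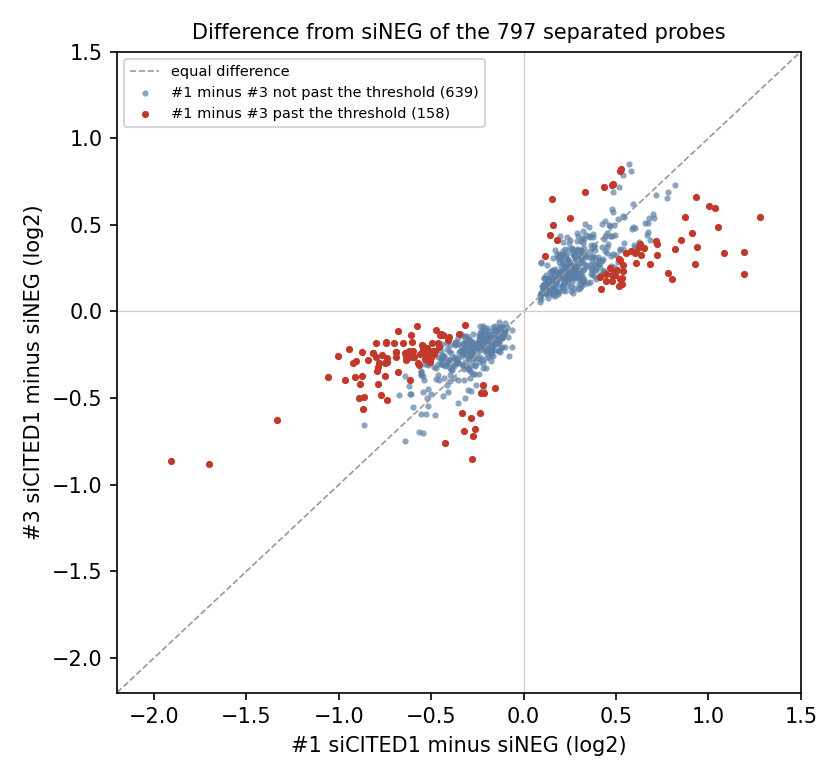
Difference from siNEG of each of the 797 separated probes with #1 siCITED1 (x axis, log2) and with #3 siCITED1 (y axis, log2), the dashed line marking equal differences and red points the 158 probes whose #1 minus #3 passed the threshold. Most red points are further from 0 along the #1 axis. The axes share the siNEG arrays, and the rule for separated probes leaves no points in the other quadrants.

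The largest such differences among the rises were in PTGS2, SPATS1, SPP1 and TYR. PTGS2, the inducible cyclooxygenase, read 0.71, 0.50, 0.93 and 0.74 on the #1 siCITED1 arrays and -0.32, -0.26, -0.25 and -0.18 on the #3 siCITED1 arrays, against -0.32, -0.39, -0.58 and -0.59 on the siNEG arrays. The #1 arrays were far above the rest, while the lowest #3 array and the highest siNEG array were almost equal. #1 minus #3 was 0.98 (95% confidence interval of 0.81 to 1.14, adjusted p = 6.9e-09), and the difference from siNEG was 1.19 with #1 and 0.22 with #3 (adjusted p = 0.21). The other PTGS2 probe overlapped siNEG, with 0.59 and -0.031.

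TYR read 0.50, 0.36, 0.63 and 0.63 on the #1 siCITED1 arrays and -0.22, 0.067, -0.21 and -0.16 on the #3 siCITED1 arrays, against -0.46, -0.36, -0.37 and -0.41 on the siNEG arrays. The 3 groups did not overlap one another, with #3 between #1 and siNEG. #1 minus #3 was 0.66 (95% confidence interval of 0.51 to 0.81, adjusted p = 8.2e-07). SPP1, the secreted phosphoprotein osteopontin, gave 1.08 with #1 and 0.34 with #3. Its other probe overlapped siNEG, with 0.99 with #1 and 0.083 with #3. SPATS1 gave 1.19 with #1 and 0.34 with #3.

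Among the falls the largest differences were in HJURP, UBE2C, APOBEC3B and CENPM. HJURP read -0.60, -0.59, -0.50 and -0.55 on the #1 siCITED1 arrays and 0.25, 0.19, 0.096 and 0.15 on the #3 siCITED1 arrays, against 0.39, 0.32, 0.50 and 0.34 on the siNEG arrays. The #1 arrays were all far below the others. Its difference from siNEG was -0.94 with #1 and -0.21 with #3 (adjusted p = 0.071 for #3), and #1 minus #3 was -0.73 (95% confidence interval of -0.86 to -0.60, adjusted p = 1.5e-08).

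UBE2C, the ubiquitin-conjugating enzyme of the anaphase-promoting complex, read -0.56, -0.41, -0.55 and -0.49 on the #1 siCITED1 arrays and 0.21, 0.099, 0.13 and 0.11 on the #3 siCITED1 arrays, against 0.43, 0.42, 0.32 and 0.31 on the siNEG arrays. As in HJURP, the #3 arrays stayed above 0 and below siNEG. APOBEC3B, a cytidine deaminase, gave -0.92 with #1 and -0.30 with #3, and CENPM, a protein of the inner kinetochore, gave -0.80 with #1 and -0.18 with #3 (adjusted p = 0.12 for #3). The other UBE2C probe was separated, with -0.37 with #1 and -0.18 with #3. Of the other CENPM probes 1 was separated, with -0.66 with #1 and -0.18 with #3, and 1 overlapped siNEG, with -0.70 with #1 and -0.085 with #3.

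**Figure D5:**
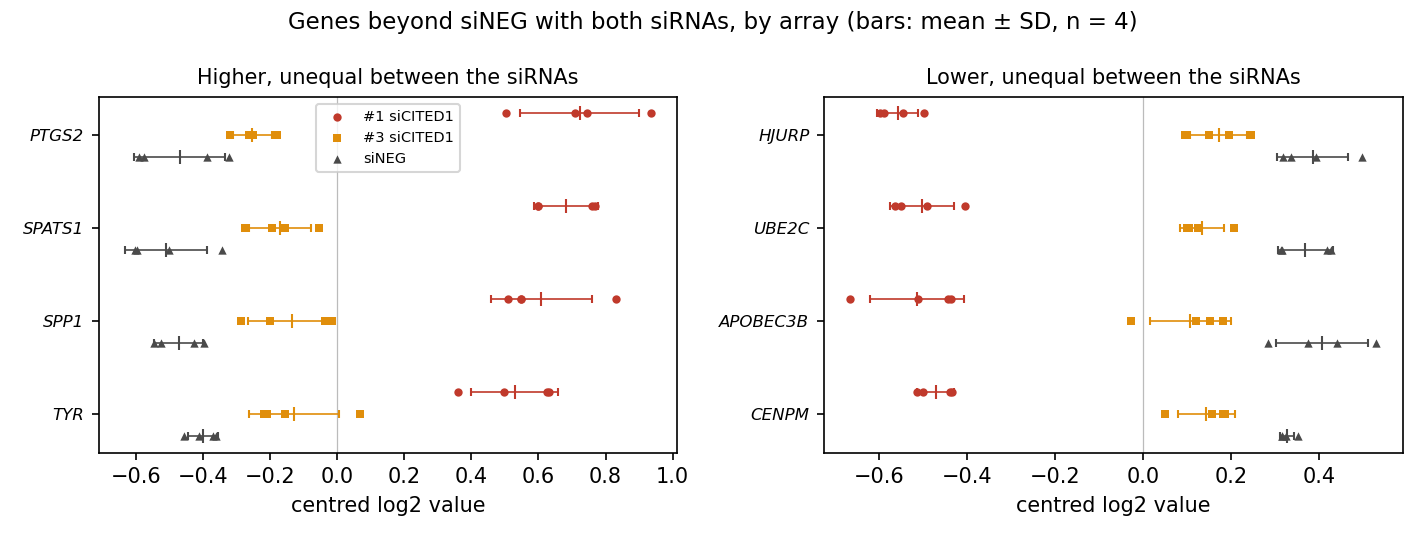
Centred log2 value (x axis) on each array for the 4 rises (left) and 4 falls (right) with the largest difference between the siRNAs, with points for arrays and bars for the mean ± SD of 4 arrays. The #1 siCITED1 points are farthest from siNEG in all 8 genes, and the #3 siCITED1 points lie between.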

How the data were processed

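RNA from 12 wells of HT144 cells was read on Illumina HT-12 arrays, 4 wells for each of #1 siCITED1, #3 siCITED1 and siNEG. The authors quantile normalized the intensities and removed control probes in BASE, then took log2 values and centred them on each gene and sample in MeV. How background was corrected, how detection was called and which versions were used is not given in the sources. The deposited log2 values were used as they stand, without a filter. Centring leaves no absolute level, so dim probes cannot be set apart and a difference at background cannot be told from one above it. The number of arrays limits the precision.

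The test was limma (3.58.1, R 4.3.3; lmFit, then eBayes) on a model of the 3 groups. The average of the #1 and #3 means minus siNEG, each siRNA minus siNEG and #1 minus #3 were tested, two-sided, with Benjamini-Hochberg adjustment over 47315 probes and a threshold of 0.05. The model was tested on simulated data. Errors of differences are SEs. Folds assume base 2.

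Of the probes 30105 had 1 gene symbol, 8 several and 17202 none, and those without a single symbol stayed in the tests. They named 20045 genes, 6688 of them by more than 1 probe. The written gene lists had 1035 entries, of which 979 were matched, and 34 families were taken by symbol. Members and lists were chosen with earlier results of these data known.

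Genes were named by rule: the 12 rises and 12 falls past the threshold and separated, ranked by the smaller of the differences with #1 and #3, without the 20 genes set aside, the 4 of each direction with the largest #1 minus #3, up to 4 separated members of each list and the 3 probes on either side of the border of the rule. Other genes were chosen after their values were seen: in the lists CCNB2, PRC1, ZWINT, CDC20, BUB1B, CIITA and the phosphatases PTPN9 and DUSP18. Promoters came from RefSeq on GRCh38.p14, and of 33 named genes 25 had one.

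Arrays with the same replicate number were not treated as pairs: their deviations from the group means correlated between -0.054 and 0.098 in 12 pairs, and in 3 of 12 the same number correlated best. Alternatives were the 2-group design of the study, a replicate block, robust eBayes, array weights, scaling, quantile normalization, other sets of probes and leaving out each array.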

Additional observations from a re-analysis of the deposited data

Results flagged for a closer look

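Within groups of 4 arrays, 99 groups of the named genes were examined for a single array far from the others, and 3 had one. Chance gives about 1 in 20 groups. CAPN3 was at -0.0238 on #3 siCITED1 replicate 4, with the other #3 arrays between 0.174 and 0.213. SKA2 was at -0.0749 on #1 siCITED1 replicate 4, with the others between -0.13 and -0.141. SPP1 was at 0.832 on #1 siCITED1 replicate 2, with the others between 0.508 and 0.547.

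The response differed between the siRNAs by the test of #1 minus #3 (limma, adjusted over all probes) for 11 of 33 genes. The 33 were CITED1, the leading rises and falls, and the genes with the largest #1 minus #3. List members and border genes were not counted here, and some of them also passed, such as PRC1 and DUSP3. The difference was -0.295 log2 for WSB1, a rise that was larger with #3. It was -0.225 for SMAGP and -0.289 for TRIP13, both falls that were larger with #1, and TRIP13 did not pass on 1 value per gene. Among the rises chosen for the size of this difference it was 0.975 for PTGS2, 0.851 for SPATS1, 0.744 for SPP1 and 0.659 for TYR. Among the falls chosen in that way it was -0.73 for HJURP, -0.637 for UBE2C, -0.622 for APOBEC3B and -0.616 for CENPM. The last 8 were picked by this measure, so their sizes are descriptions.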

How the results depend on the processing

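In the 2-group design of the study, where a gap between #1 and #3 adds to the residual spread, the average passed for 525 probes, 276 higher and 249 lower, all of them among the 1692, and that design gives no value for a single siRNA. On 1 value per gene 517 genes were separated. Leaving out 1 array gave between 903 and 1393 separated probes, since fewer arrays have to be cleared: 1393, 1321, 1315 and 1290 without siNEG replicates 1, 2, 3 and 4. It gave between 1240 and 1589 probes for the average, between 281 and 402 for both siRNAs in 1 direction and between 141 and 229 for the difference between them. CITED1 stayed between -0.73 and -0.67. Under robust eBayes, array weights, scaling and quantile normalization the counts stayed within 1.5 times.

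With replicate number as a block, 1706 probes passed for the average, 397 for both siRNAs and 154 for the difference, and CITED1 gave -0.70. Of these, 1606 for the average and 365 for both siRNAs were among the 1692 and 389 that passed without it, so some single probes changed side while the counts stayed close. No named gene changed side of the threshold under the block. The numbers do not pair the arrays.

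Of 632 values of the 32 named genes under the alternatives, 630 kept their direction and side of the threshold and 0 reversed. The other 2 were RNA28SN5, which did not pass in the 2-group design or with robust eBayes. The cause was not tested. These counts leave out size. They follow the average for the genes ranked by both siRNAs, and #1 minus #3 only for the genes picked by it. The #1 minus #3 calls of WSB1, SMAGP and TRIP13 are therefore not among them. That of TRIP13 did not pass on 1 value per gene (limma adjusted p = 0.0502). On 1 value per gene ATP9A gave 0.20, GAB2 0.21, SKA2 -0.29 and SEMA6B -0.28, against 0.61, 0.52, -0.54 and -0.51 on the named probes. For SPP1, #1 minus #3 was larger, 0.83 against 0.74. The named genes were picked on these same arrays, so the counts are descriptions.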

Other observations

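Several families with a separated gene were not part of the lists described above. Over all genes, 2.77% were called higher and 2.99% lower. Histone genes H2AC6 and H2AC18 rose by 0.52 and 0.47 log2 on the mean of their probes and H3-3A by 0.25, of 86 histone genes in which 9 were called higher and 3 lower. Near-identical histone copies may bind the same probe. Of 72 TRIM proteins, 6 were called higher and 0 lower, with TRIM2 at 0.25 and TRIM44 at 0.21. Of 42 genes of the TNF family and receptors, 3 were called higher and 3 lower, with TNFRSF14 at 0.78 with #1 and 0.22 with #3 and TNFRSF11B at 0.43 and 0.22. Of 395 SLC transporters, 19 were called higher and 9 lower, with SLC36A1, a lysosomal amino acid exporter, at 0.46 and SLC38A1, a glutamine importer, at -0.32. Of 72 ADAM and MMP proteases, 2 were called higher (2.78%, near the share over all genes) and 0 lower. ADAMTS1 was at 0.48 with #1 and 0.69 with #3. Of 493 ZNF proteins, 11 were called higher (2.23%) and 4 lower (0.811%), both under the shares over all genes. SERPINB8 fell by 0.35 on the log2 scale. All these names were chosen after their values were seen.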
